A study of Mus musculus with 7 samples.

Results

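miRNAs that are widely described as raised in human glioma were followed from normal mouse cortex to mouse astrocytoma. They were mmu-miR-10a, mmu-miR-10b, mmu-miR-148a, mmu-miR-182, mmu-miR-183, mmu-miR-196a, mmu-miR-196b, mmu-miR-210, mmu-miR-221 and mmu-miR-222, chosen by exact probe name, and they were 10 of the 566 mouse miRNA probes in the table. The prefix mmu, for the mouse, is left out below. The normal group was 3 samples of upper neocortex (layers II to IV) from wild-type mice of the CD1 strain, all at postnatal day 60. The tumor group was 4 astrocytoma samples of CD1 mice with the transgene hGFAP-HaV12-Ras, at postnatal days 65, 104, 125 and 134 for tumor 1 to 4. The transgene puts an activated Ras oncogene behind the human promoter of the astrocyte gene GFAP, so the oncogene is made in cells where that promoter is active. The cell in which the tumors start was not examined. Neocortex 2 and tumor 2 were female and the others male. The labels do not say whether a sample pools animals, or from which region a tumor was cut. The p-values therefore measure the spread between these samples only.

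A miRNA is a short RNA that guides silencing proteins to messenger RNAs, mainly through its seed, bases 2 to 8 from the 5′ end. miRNAs with the same seed are expected to share many targets. miR-10 and miR-196 genes lie inside the Hox clusters, which pattern the body axis and are normally quiet in the forebrain. In human glioblastoma miR-10b is a well-known example of a miRNA that is nearly absent from normal brain and present in tumor. miR-221 and miR-222 repress the cell cycle inhibitor p27. miR-210 is the classic miRNA induced by low oxygen. miR-182, miR-183 and miR-96 are made from one cluster that is best known from sensory organs.

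The mature sequences, from RefSeq on GRCm38.p6, are shown because the comparisons below rest on which of these miRNAs share a seed and how close the remaining bases are. Capitals mark the seed. The panel names carry no arm, and each was read as the main arm of its precursor.
miR-221: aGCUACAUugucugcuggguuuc
miR-222: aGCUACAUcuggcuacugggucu
miR-148a: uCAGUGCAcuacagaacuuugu
miR-148b: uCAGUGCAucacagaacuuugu
miR-152: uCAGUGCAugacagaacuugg
miR-210: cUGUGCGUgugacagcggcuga
miR-10a: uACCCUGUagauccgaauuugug
miR-10b: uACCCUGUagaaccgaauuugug
miR-196a: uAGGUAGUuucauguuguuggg
miR-196b: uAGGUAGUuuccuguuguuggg
miR-182: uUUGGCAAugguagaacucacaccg
miR-183: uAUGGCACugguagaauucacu
miR-96: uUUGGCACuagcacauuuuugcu

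All 13 names had a sequence. miR-10a and miR-10b differ by 1 substitution, U12A, counted from 1 at the 5′ end of miR-10a, and miR-196a and miR-196b differ by A12C. How well the panel's probes separate such near-identical pairs is not given in the sources used here. miR-221 and miR-222 share the seed but differ at 12 of 23 positions. miR-148b and miR-152 carry the seed of miR-148a and are partners of it without being among the 10. In the cluster of miR-182, miR-183 and miR-96 the bases 2 to 8 differ in each pair, between miR-182 and miR-96 by A8C alone.

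The genes of the first pair are neighbours on chromosome X, with mature miR-221 at chrX:19146307-19146329 and miR-222 at chrX:19146901-19146923, both on the minus strand and 594 bases apart. The mature miR-10a (chr11:96317186-96317208, plus strand) lies inside the annotated span of Hoxb3, and miR-10b (chr2:74726074-74726096, plus strand) inside those of Hoxd3 and Hoxd4. miR-196a comes from 2 genes, near Hoxb9 (chr11:96265187-96265208) and between Hoxc10 and Hoxc9 (chr15:102973365-102973386). miR-196b (chr6:52230129-52230150, minus strand) lies between Hoxa9 and Hoxa10. miR-182 (chr6:30165962-30165986) and miR-183 (chr6:30169711-30169732) lie on the minus strand of chromosome 6 within the noncoding gene Mirc35hg, together with miR-96. miR-210 (chr7:141221407-141221428, minus strand) has Rassf7 as its nearest coding gene, and miR-148a lies at chr6:51269829-51269850.

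Levels are deposited log2 values of a NanoString nCounter assay, in which barcoded probes are counted one by one. The miRNA counts recovered from these values summed to between 23559 and 60789 per neocortex sample and between 117609 and 208058 per tumor, so tumor values rest on more counts. Any probe under its sample's cutoff is listed at 0. In counts it lay between 8 and 14 for neocortex and between 13 and 16 for tumor. As a log2 level it stood at 4.65, 4.88 and 5.21 in neocortex 1 to 3 and at 3.64, 3.24, 3.78 and 3.09 in tumor 1 to 4. A level between about 3 and 5 could thus be listed in tumor and be 0 in neocortex. Probes for viral miRNAs, 33 in number, serve as a further measure of background, and the highest of them stood at 4.75 to 5.38 in neocortex and at 4.42 to 4.85 in tumor. The negative-control probe NEG_D stood at 5.42 to 5.80 in neocortex, above every viral probe there, and at 0 to 4.17 in tumor.

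Of the 70 values of the 10 miRNAs, 19 were 0, of which 13 were among the 30 neocortex values and 6 among the 40 tumor values. miR-10b, miR-182, miR-183 and miR-196a were at 0 in all 3 neocortex samples. miR-10a was at 0 in neocortex 2 only. In tumor, miR-10b had 0 in tumor 3, miR-183 in tumor 1 and 4, and miR-182 in tumor 1, 3 and 4. The 5 miRNAs above the cutoff in all 7 samples were miR-148a, miR-196b, miR-210, miR-221 and miR-222.

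**Figure D1:**
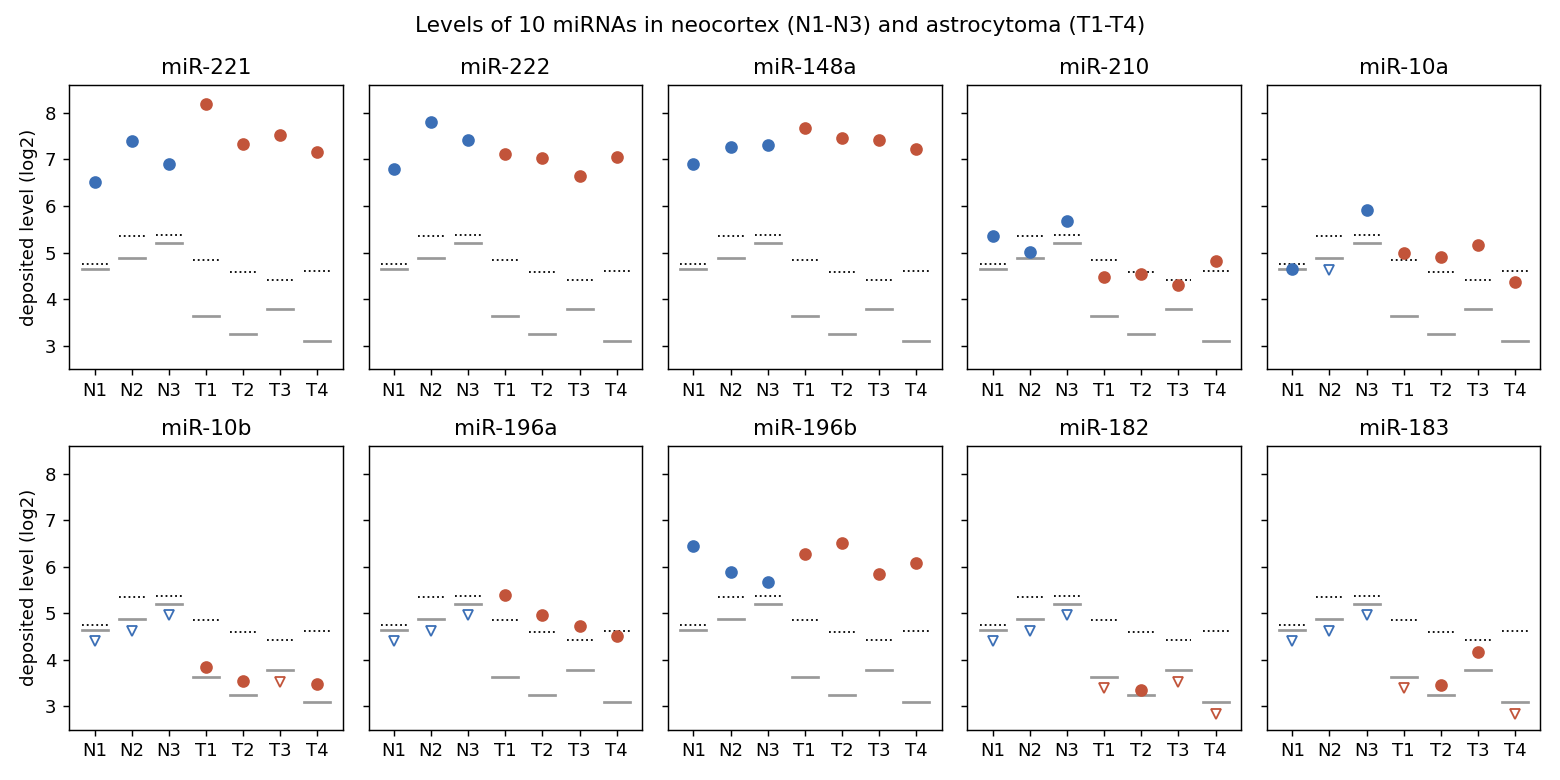
Deposited log2 level (vertical axis) of each of the 10 miRNAs in neocortex samples N1 to N3 (blue) and tumors T1 to T4 (red). Open triangles are values listed at 0, drawn just under the sample's cutoff (grey line), and the dotted line is the sample's highest viral probe. miR-148a, miR-221 and miR-222 stand well above both lines in every sample, while miR-10b, miR-182 and miR-183 never rise above the dotted line.

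Of the 10 miRNAs, 7 passed the filter on low values and were tested with limma, and 1 of them, miR-196a, was called higher in tumor and 0 lower at an adjusted p under 0.05 (Benjamini-Hochberg, as for every limma adjusted p here) (2 of the 7 at an unadjusted p under 0.05). The background over all 283 tested miRNAs was 8.13% called higher and 9.54% called lower, and 1 of 7 is close to it. An unadjusted p under 0.05 in limma was seen for 92 of the 283, so 2 of 7 is not above the background either. The median change of the 7 was 0.28 on the log2 scale, against 0.03 over all 283. All directions are on the authors' scaling, and those of miR-148a, miR-196b, miR-210, miR-221 and miR-222 each turned under one of the control-probe scalings given further on. The call of miR-196a came from values of 0 in neocortex, as set out below. With every value under the highest cutoff, 5.21, raised to that level (the shared cutoff), none of the 7 was called in either direction (limma, 0 at an unadjusted p under 0.05), where 8.03% of 274 miRNAs were called higher and 11.7% lower.

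Of the neighbours miR-221 and miR-222, the tumor mean was above that of neocortex for miR-221 and below it for miR-222, and neither difference passed the test. miR-221 stood at 6.51, 7.39 and 6.91 in neocortex and at 8.20, 7.34, 7.52 and 7.16 in tumor, on the log2 scale. Tumor 1, the youngest, was the highest, and the groups overlapped through neocortex 2. The neocortex mean was 6.94 ± 0.44 (SD, n = 3) and the tumor mean 7.56 ± 0.45 (SD, n = 4). The change of 0.62 (SE 0.33, 95% interval -0.18 to 1.42) did not pass the test (limma adjusted p = 0.23). After subtraction of the negative-control probe NEG_D and with the shared cutoff, an alternative chosen after seeing the data, it was 1.30 and miR-221 was called higher (limma adjusted p = 0.043). In that setting 36 of 190 miRNAs were called higher and 12 lower. NEG_D stood higher in neocortex than in tumor, so its subtraction lowers neocortex values more than tumor values of a like level. As listed the change of miR-221 was 0.40 without tumor 1 and 0.41 without neocortex 1.

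miR-222 stood at 6.79, 7.81 and 7.42 in neocortex and at 7.12, 7.03, 6.64 and 7.06 in tumor. The tumors lay within or just below the neocortex range, with tumor 3 the lowest of all samples. Its change of -0.38 (SE 0.28, 95% interval -1.06 to 0.31) had the opposite sign to that of miR-221 and did not pass the test either (limma adjusted p = 0.37). It was -0.65 without neocortex 1 and -0.14 without neocortex 2. Between 26 and 57 counts stood behind miR-221 in neocortex and 37 to 76 behind miR-222, against 214 to 306 and 116 to 252 in tumor.

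The difference between both miRNAs within a sample is free of any scaling of that sample. miR-221 minus miR-222 was -0.28, -0.42 and -0.51 in neocortex and 1.08, 0.31, 0.88 and 0.10 in tumor. Every tumor lay above every neocortex sample. The means of -0.40 ± 0.12 (SD, n = 3) and 0.59 ± 0.46 (SD, n = 4) differed by 0.996 on the log2 scale, with a 2-sided exact permutation p of 0.057 over 35 splits, where 0.029 is the smallest possible, and 0.057 adjusted over the 2 pairs tested. Separation of this kind was common, since 35.9% of all 19306 pairs of miRNAs above the cutoff in every sample had non-overlapping differences. With NEG_D subtracted and the shared cutoff, the difference was 1.29 and the exact permutation p was 0.029, also after adjustment over 2 pairs. The share of all pairs without overlap was not computed in that setting.

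miR-221 and miR-222 are also made by endothelial cells. The 4 vessel miRNAs on the panel (miR-126-3p, miR-126-5p, miR-143 and miR-145) had a summed linear level of 1202 to 1538 in neocortex and 1633 to 3246 in tumor. In limma 0 of the 4 were called, and 1 had an unadjusted p under 0.05, as had 92 of all 283 tested miRNAs. With the shared cutoff 1 of the 4, miR-126-3p, was called higher at 0.94 (limma adjusted p = 0.035). In the setting with NEG_D subtracted and the shared cutoff, where miR-221 was called higher, miR-126-3p at 1.03 and miR-126-5p at 1.37 were called higher too (limma adjusted p = 0.023 and 0.012), and the median change of the 4 was 1.06. miR-143 and miR-145 were not called there, and 36 of 190 miRNAs were called higher. miR-222 was at 0.0097 in that setting, and miR-145 was at -0.22 as listed. The part of vessel cells in the values of miR-221 and miR-222 was not tested. In bulk tissue, fewer cells of a type and less RNA per cell cannot be told apart.

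miR-148a, which shares its seed with miR-148b and miR-152, had a tumor mean slightly above that of neocortex, short of the test. It stood at 6.91, 7.26 and 7.30 in neocortex and at 7.68, 7.45, 7.41 and 7.22 in tumor, on 34 to 67 and 198 to 281 counts. Tumor 1 to 3 lay above all neocortex samples and tumor 4, the oldest, lay inside their range. The neocortex mean was 7.16 ± 0.21 (SD, n = 3) and the tumor mean 7.44 ± 0.19 (SD, n = 4), and the change of 0.28 (SE 0.19, 95% interval -0.18 to 0.75) did not pass the test (limma adjusted p = 0.33). With NEG_D subtracted and the shared cutoff it was 0.80, called higher (limma adjusted p = 0.015), as were 36 of 190 miRNAs there. As listed the change of miR-148a was 0.16 without neocortex 1. The value was lower at each later tumor age, which among the 5 miRNAs above the cutoff in all samples held for miR-148a alone. miR-196a, at 0 in neocortex but listed in all 4 tumors, was also lower at each later age, from 5.40 to 4.51. That pattern was seen in 7.61% of the 197 miRNAs above the cutoff everywhere, each age is 1 sample, and no trend was tested.

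Its seed partner miR-148b, which lies within Copz1 on another chromosome, stood at 6.59, 6.92 and 7.57 in neocortex and at 6.30, 6.73, 6.57 and 6.49 in tumor. Tumor 1, 3 and 4 lay below all neocortex samples and tumor 2 above neocortex 1, with a change of -0.50 (SE 0.27, limma adjusted p = 0.23) that was -0.23 without neocortex 3. miR-148a minus miR-148b within a sample was 0.32, 0.34 and -0.27 in neocortex and 1.38, 0.72, 0.84 and 0.73 in tumor. Every tumor exceeded every neocortex sample, by a mean of 0.79 on the log2 scale (2-sided exact permutation p = 0.029, the smallest that 35 splits allow, and 0.057 adjusted over the 2 pairs), against the same 35.9% of all pairs without overlap. Without neocortex 3 the mean was 0.59.

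miR-152, the third miRNA of that seed, within Copz2, had 0 in neocortex 3, a level of 6.01 in neocortex 1 and 5.14 in neocortex 2, and stood at 6.11, 6.10, 6.47 and 6.71 in tumor. All tumors lay above all neocortex samples, though tumor 1 and 2 exceeded neocortex 1 by no more than 0.1. Groups without overlap, in either direction, were seen for 32.9% of all tested miRNAs. With the shared cutoff the group difference was 0.87 (SE 0.25, limma adjusted p = 0.055), which missed a call. Over all settings the limma adjusted p of miR-152 ranged from 0.018 to 0.43. With NEG_D subtracted and the shared cutoff, 1 of the 2 tested cluster and seed partners was called higher, where 36 of 190 miRNAs were. Of the 8 pairs set for comparison, those with a 0 in any sample, 6 in number, were not tested.

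**Figure D2:**
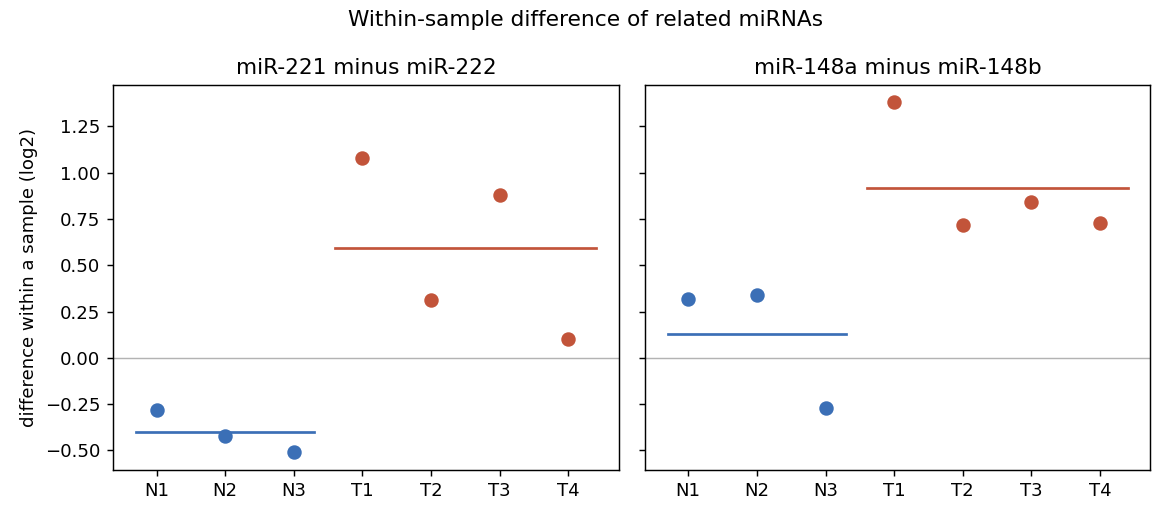
Difference of 2 related miRNAs within each sample (log2, vertical axis) for miR-221 minus miR-222 and miR-148a minus miR-148b. Points are samples N1 to N3 (neocortex, blue) and T1 to T4 (tumor, red), and lines are group means. In both pairs all tumors lie above all neocortex samples, with adjusted exact permutation p of 0.057.

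miR-210 was the single one of the 7 tested with all tumors below all neocortex samples, and it was counted near background. It stood at 5.36, 5.02 and 5.67 in neocortex and at 4.47, 4.54, 4.30 and 4.81 in tumor, on the log2 scale. The groups did not overlap, as for 32.9% of all tested miRNAs. The neocortex mean was 5.35 ± 0.33 (SD, n = 3) and the tumor mean 4.53 ± 0.21 (SD, n = 4), and the change of -0.82 (SE 0.22, 95% interval -1.36 to -0.28) missed a call (limma adjusted p = 0.052). The limma adjusted p was 0.020 where the filter kept just the miRNAs listed in all 7 samples and 0.038 without neocortex 2. In these fits 41 of 197 and 23 of 283 miRNAs were called lower, and the median change over the 197 was -0.29. Over all settings the limma adjusted p of miR-210 ranged from 0.0056 to 0.31. The sign of its change turned with positive-control scaling (0.89, limma adjusted p = 0.045), where 230 of 283 miRNAs were called higher.

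The neocortex values of miR-210 rested on 23, 11 and 11 counts, and the tumor values on 23, 32, 23 and 53 counts. Against the negative-control probe NEG_D, miR-210 lay below it in all 3 neocortex samples and above it in all 4 tumors. Against the highest viral probe, it lay above in neocortex 1 and 3 and in tumor 4, and below in the other samples. With the shared cutoff its change was -0.20 (SE 0.12, limma adjusted p = 0.31). All 4 tumor values and that of neocortex 2 lay under that cutoff, 5.21, and were raised to it. This shrinks the change by construction, so that fit cannot show whether the listed difference holds. Tumor 4 was thus the single sample in which this hypoxia-induced miRNA exceeded both NEG_D and the highest viral probe.

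Of the Hox-cluster miRNAs, miR-196b was listed in both tissues, miR-10a in all samples but 1, and miR-196a and miR-10b in tumor alone. miR-196a was at 0 in every neocortex sample, meaning under 14, 10 and 8 counts. In tumor it stood at 5.40, 4.97, 4.73 and 4.51 on the log2 scale, on 44, 43, 31 and 43 counts. It lay above the highest viral probe in tumor 1, 2 and 3 and below it in tumor 4. As listed, the difference was called (limma adjusted p = 6.1e-05), but the tumor mean of 4.90 ± 0.38 (SD, n = 4) was no higher than the mean neocortex cutoff of 4.91, so no fold can be given.

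With the shared cutoff miR-196a differed by 0.05 (SE 0.09, limma adjusted p = 0.69), as tumor 1 alone stood above that level. Of the 23 miRNAs called higher as listed, 34.8% were like it at 0 in all neocortex samples, and 8.83% of all 566 miRNAs had the same pattern of 0 in every neocortex sample and a listed value in every tumor. miR-196a was also the last miRNA to pass the filter on low values, at rank 283 of 566 by mean level. It was too low to test without any 1 of the tumors, with median scaling and with housekeeping scaling.

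miR-196b, its near-identical partner from the Hoxa cluster, was listed in every sample. It stood at 6.45, 5.88 and 5.67 in neocortex and at 6.28, 6.51, 5.85 and 6.07 in tumor. The groups overlapped, with a change of 0.18 (SE 0.27, 95% interval -0.46 to 0.82, limma adjusted p = 0.63). Fits without 1 sample gave 0.013 (without neocortex 3) to 0.40 (without neocortex 1). Neocortex counts were 49, 20 and 11, tumor counts 67 to 127, and in neocortex 3 the value lay under NEG_D.

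miR-10b, the well-known example from human glioblastoma, stayed at the limit of detection. It had 0 in tumor 3 as in the whole neocortex group, and stood at 3.85, 3.54 and 3.48 in tumor 1, 2 and 4, on 15, 16 and 21 counts (95% Poisson intervals 8.4 to 24.7, 9.15 to 26.0 and 13.0 to 32.1). In every tumor it lay below the highest viral probe, and each listed value lay below every neocortex cutoff. It did not pass the filter on low values, and with no filter its limma adjusted p was 0.11.

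miR-10a, with the same seed, had a level of 4.65 in neocortex 1 and 5.91 in neocortex 3, had 0 in neocortex 2, and stood at 4.99, 4.90, 5.17 and 4.37 in tumor. The highest value of all was that of neocortex 3, at 13 counts, and tumor counts were 33 to 42. As listed its change was 1.34 with an SE of 1.35, and with the shared cutoff it was -0.23 (SE 0.18, limma adjusted p = 0.43). The sign of its change therefore depended on the 0 of neocortex 2, and without that sample it was -0.42.

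miR-182 and miR-183 were close to undetected in both tissues. miR-182 was listed in tumor 2 only, at 3.35 on 14 counts (95% Poisson interval 7.65 to 23.5). miR-183 was listed in tumor 2 and 3, at 3.45 and 4.17 on 15 and 21 counts. All 3 values lay below the highest viral probe of their sample. Neither passed the filter, and with no filter the limma adjusted p was 0.50 for miR-182 and 0.28 for miR-183.

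miR-96, made from the same cluster, was listed in all 4 tumors. It had 0 throughout neocortex and stood at 4.11, 3.63, 5.24 and 3.33 in tumor, on 18, 17, 44 and 19 counts. Tumor 3, which also had the highest miR-183, exceeded its highest viral probe of 4.42, and the other tumors did not. The tumor mean of 4.08 lay below the mean neocortex cutoff of 4.91, so no fold can be given, and with the shared cutoff the change was 0.01 (SE 0.07, limma adjusted p = 0.94). miR-615-3p, which lies in the Hoxc cluster, was at 0 in all 7 samples. None of the * forms of the 10 miRNAs was analysed here.

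**Figure D3:**
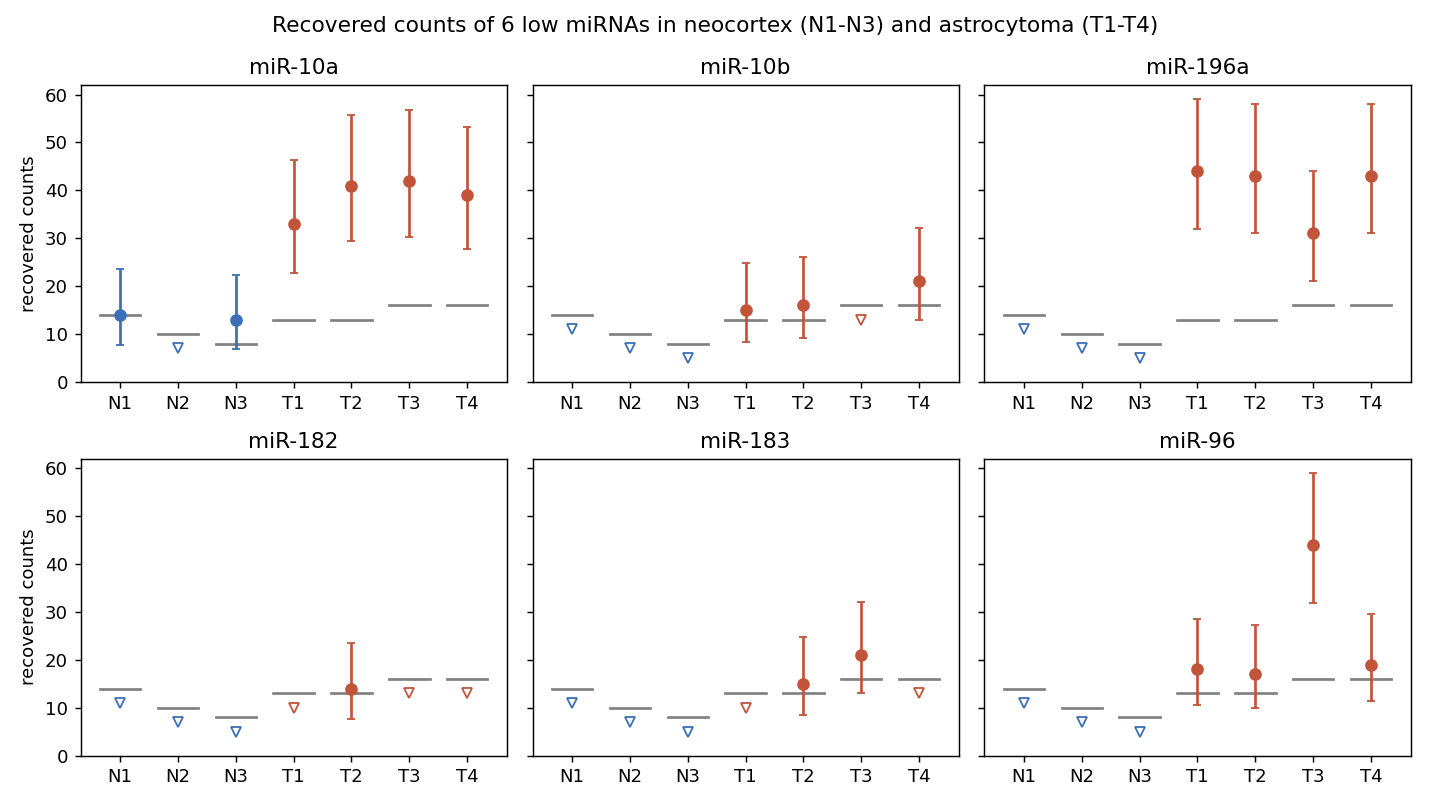
Recovered counts (vertical axis) of miR-10a, miR-10b, miR-196a, miR-182, miR-183 and miR-96 in neocortex N1 to N3 (blue) and tumor T1 to T4 (red), with 95% Poisson intervals that cover counting error only. Grey lines are the cutoffs and open triangles are values under them. miR-196a has 31 to 44 counts in every tumor, while miR-10b, miR-182 and miR-183 have at most 21.

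Directions were relative to the authors' scaling. Scaled on the 5 highest positive-control probes, all 7 tested miRNAs were called higher, as were 230 of all 283, and the median of all miRNAs moved to 1.77. Scaled on the housekeeping mRNA probes that median was -0.95, and miR-148a, miR-210 and miR-222 were called lower. They were 3 of 6 members tested there, where 136 of all 283 miRNAs were called lower. Relative to the median of all miRNAs the change of miR-221 was 0.56 and 0.61 under these scalings, that of miR-222 was -0.44 and -0.39, that of miR-148a was 0.22 and 0.27, and that of miR-210 was -0.88 and -0.83. Such a scaling moves all listed values of a sample by the same amount, so the distance between any 2 of these 4 changes is not affected.

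**Figure D4:**
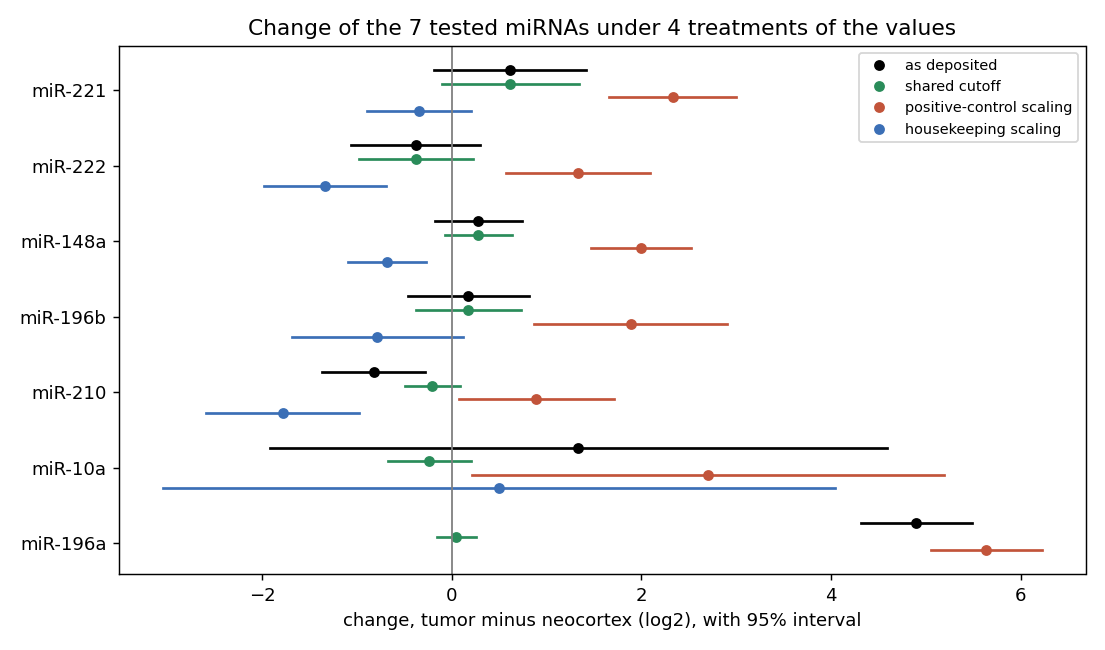
Change from neocortex to tumor (log2, horizontal axis) with its 95% interval in limma for the 7 tested miRNAs, under the deposited values, the shared cutoff and scalings on positive-control and housekeeping probes. miR-196a lies at 4.90 as listed, a distance from 0 that is no fold, and at 0.05 with the shared cutoff, and was too low to test with housekeeping scaling. Positive-control scaling moves all 7 above 0, and the median of all miRNAs to 1.77.

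Other miRNAs often raised in human gliomas, a list of 19 that leaves out the 10, held 7 called higher of 18 tested, or 0 lower and 11 that did not pass, where the background was 8.13% called higher. The 18 had a median change of 0.90, and 11 had an unadjusted p under 0.05 in limma, against 92 of all 283. The 7 were miR-21 at 2.76, the probe for miR-106a with miR-17 at 1.38, that for miR-20a with miR-20b at 1.14, miR-19b at 1.11, miR-15b at 0.98, miR-130a at 0.92 and miR-93 at 0.87. miR-21 and the probe for miR-106a with miR-17 were called in each of the 7 limma fits without 1 sample. The other five were called in 1 or 2 of these fits, with limma adjusted p of up to 0.13. With the shared cutoff 9 of 18 were called higher, and on housekeeping scaling 1 higher and 3 lower, where 8 and 136 of all 283 miRNAs were. The list partly repeats miRNAs already known to be higher in these samples, and a difference between it and the 10 was not tested.

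Markers of the cell types in the tissue were read beside these values. Over all tested miRNAs, 23 of 283 were called higher and 27 lower as listed, and 22 of 274 and 32 with the shared cutoff. As listed, 92 of the 283 had an unadjusted p under 0.05 in limma. Positive-control scaling gave 230 of 283 higher and 0 lower, and housekeeping scaling 8 and 136. The replicate number as a block gave 5 of 283 higher and 0 lower. NEG_D subtraction with the shared cutoff gave 36 of 190 higher and 12 lower. The 3 oligodendrocyte miRNAs were all called lower (0 of 3 with positive-control scaling or with the replicate number as a block), with a summed linear level of 5985 to 7702 in neocortex and 1004 to 2323 in tumor. Of 8 tested neuron miRNAs 0 were called (limma, 2 at an unadjusted p under 0.05) at a median change of -0.52, while 2 were called lower with the shared cutoff and 7 with housekeeping scaling, and all 8 higher with positive-control scaling. Their summed level was 9261 to 16580 and 6912 to 9831, and miR-212 was at 0 in all neocortex samples. Of 6 tested microglia and white blood cell miRNAs 2 were called higher as listed, miR-142-3p and miR-146a, with sums of 717.4 to 923.3 and 688.1 to 1239, and miR-142-5p was at 0 throughout. miR-146a was at 0 in all neocortex samples and passed the filter through its tumor values. With the shared cutoff it was at 0.51 (limma adjusted p = 0.092) and miR-142-3p alone was called, and with all values under 5.80 raised to it 0 of the 6 were. Of 3 astrocyte, 3 red blood cell and 3 tested epithelial and choroid plexus miRNAs 0 were called in each list (limma, 2, 0 and 0 at an unadjusted p under 0.05). Their sums were 8094 to 10814 and 12854 to 16228, 267.8 to 365.5 and 395.9 to 674.5, and 628.4 to 6485 and 991.6 to 1953. With NEG_D subtracted and the shared cutoff, 2 of 3 astrocyte and 2 of 2 tested red blood cell miRNAs were called higher. Their part in the values of the 10 miRNAs was not tested.

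The miRNAs with the most similar profile were named by the root mean square difference of log2 profiles, each centred on its own mean over the 7 samples, among 197 miRNAs above the cutoff everywhere. For miR-221 they were miR-29a, miR-674 and miR-29b, at 0.22, 0.26 and 0.29, where the median over the other miRNAs was 0.64. For miR-222 they were miR-3099, miR-328 and miR-376c, at 0.11, 0.18 and 0.18. For miR-148a they were let-7e, miR-674 and miR-29a, at 0.18, 0.21 and 0.22, so miR-29a and miR-674 were near both miR-221 and miR-148a. For miR-196b they were miR-15a, let-7a and miR-193b, at 0.19, 0.23 and 0.24. For miR-210 they were miR-190, miR-350 and miR-1839-5p, at 0.18, 0.22 and 0.22. miR-221 and miR-222 were not among each other's nearest 3.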

How the data were processed

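Total RNA of 7 samples was measured on the nCounter mouse miRNA panel, version 1.3, per the labels and design text. The authors deposited log2 values scaled per sample; how they were scaled and corrected, and with which software, is not stated by the labels or the file. Taken out of the log, low values of each sample were whole multiples of a common step (100% of 151 to 264 values up to 60 counts, within 0.02 counts plus rounding), which gave the recovered counts. Because the deposited values are log2, no count model was run. Tumor was compared with neocortex by limma 3.58.1 in R 4.3.3 (lmFit, eBayes, 2-sided) on the values as listed, with Benjamini-Hochberg adjustment over the 283 miRNAs whose mean over 7 samples reached the median of all 566, 2.80. Pair differences used an exact permutation test on the absolute difference of means.

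The members, lists, pairs and alternatives were chosen with earlier results of these data known. Named miRNAs are the 10, their cluster and seed partners, called miRNAs of the glioma list, and nearest profiles. Alternatives concerned values under the cutoff, filters, scaling (zeros kept at 0), a pseudocount of 10, robust fitting with a trend, sex as covariate, males alone, a replicate block, and each sample left out. The limma step was tested on simulated normal values with a common SD and without zeros. That test does not cover calls that come from values listed at 0, such as that of miR-196a. Same-numbered samples correlated at -0.18, 0.25 and 0.13 in their deviations from group means, so numbers were not taken to pair samples.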

Additional observations from a re-analysis of the deposited data

Results flagged for a closer look

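Among 16 sets of 4 tumor values, 2 stood out for a sample far from the others. The set of miR-615-3p, at 0 in every tumor, could not be examined. Chance flags about 1 in 20 sets of measured values, a rate that does not hold for sets with values listed at 0. miR-10b was at 0 in tumor 3 against 3.48 to 3.85 in the other tumors, and the cutoff of tumor 3, 3.78, was the highest of the 4. miR-182 was at 3.35 in tumor 2 and at 0 in the other tumors. Both gaps are set by values listed at 0. Viral miRNA probes, which are outside the mouse comparison, were above the cutoff for up to 18 of 33 probes in a tumor, against 1 or 2 in neocortex, with highest levels of 4.42 to 4.85 and 4.75 to 5.38.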

How the results depend on the processing

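The count of members called higher, 1 as listed, was 0 with the shared cutoff, with all values under 5.80 (the highest negative-control value) raised to it, among miRNAs above the cutoff in all samples, and with median or housekeeping scaling. It was 7 with positive-control scaling, where 230 of all 283 were called higher. With the shared cutoff after subtracting NEG_D it was 2, where 36 of 190 were called higher. Over fits that left out 1 sample it was 0 to 1. The count called lower, 0, was 1 among miRNAs above the cutoff in all samples, where 41 of 197 were called lower. It was 3 with housekeeping scaling, where 136 of 283 were, and 0 to 1 with 1 sample left out. With NEG_D subtracted 2 pair differences passed in place of 0, and the share over all pairs was not computed in that setting. Without 1 sample the pair test cannot reach 0.05 after adjustment, so only values were compared. miR-10a reversed to -0.23 with the shared cutoff, -0.037 with the 5.80 floor, -0.44 in males and -0.42 without neocortex 2 (up to 2.53 without neocortex 3). Under housekeeping scaling miR-148a, miR-196b and miR-221 reversed to -0.68, -0.78 and -0.34, and under positive-control scaling miR-210 and miR-222 to 0.89 and 1.34. miR-222 was at 0.0097 with NEG_D subtracted. With the replicate block 1 member was called higher and 0 lower, and over all miRNAs 5 were higher and 0 lower against 23 and 27 (5 to 230 higher and 0 to 136 lower over all settings); the block changed no call of a member. Depth limits miR-10b, miR-182 and miR-183, with at most 21 counts, and miR-210 in neocortex, with 11 to 23.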
